A study of Mus musculus with 24 samples.

Results

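Cerebellar granule cell genes were followed through cerebellum, brainstem and liver of mice with an expanded CAG repeat in Atxn2. Gabra6, Neurod1, Zic1, Zic2, Cbln1, Cbln3, Etv1, Pax6, Barhl1 and Fat2 make up the set of 10 genes. Every probe set that the platform's annotation assigns to one of them alone was taken, and probe sets annotated with several genes were not. This gave 18 of the 45037 probe sets tested and 8 of the 17097 genes measured. Pax6 had 5 probe sets, Etv1 had 3, Gabra6, Neurod1, Cbln3 and Barhl1 had 2 each, and Zic2 and Fat2 had 1. Zic1 and Cbln1 were not analysed here, since the annotation used assigns no probe set to either of them alone. Where a gene had several probe sets, the brightest one stands for the gene and the others are given beside it. Probe sets are named by the number in their identifier.

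The CAG42 mice were homozygous for a knock-in allele of Atxn2, with an expanded tract (CAG42) where the mouse gene has a lone CAG codon. The allele is present in every cell type and is driven by the gene's own promoter. The line had been backcrossed to C57BL/6, and wild-type (WT) siblings born to heterozygous parents served as controls. All mice were 18 months old, and the sources used here do not give their sex. RNA of each tissue was hybridized to 24 Affymetrix arrays, with 4 WT and 4 CAG42 mice for each of the 3 tissues. The deposited values are log2 values made with RMA, in which a difference of 1 is a 2-fold difference in signal. The tissue labels matched their markers: the liver gene Alb read 13.70 in WT liver against 2.96 in WT cerebellum and 3.14 in WT brainstem, and the hindbrain patterning gene Hoxb3 read 7.03 in WT brainstem against 2.79 in WT cerebellum. Atxn2 itself differed by -0.0029 between CAG42 and WT cerebellum and by -0.14 in brainstem, and neither passed the limma test. Whole tissue was measured, so that fewer cells of a type and less RNA per cell cannot be told apart.

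Granule cells are the small glutamatergic neurons that fill the inner layer of the cerebellar cortex and are the most numerous neurons of the brain. They receive mossy fibre input and send parallel fibres to the Purkinje cells, the neurons that degenerate most prominently in Spinocerebellar Ataxia Type 2. Gabra6 encodes the alpha6 subunit of the GABA-A receptor, which is largely restricted to mature granule cells. Cbln1 and Cbln3 encode cerebellins, proteins secreted from parallel fibres, and Fat2 is a large protocadherin of the parallel fibres. Neurod1, Pax6, Zic1, Zic2, Etv1 and Barhl1 are transcription factors of the granule cell lineage, of which Barhl1 is best known from developing granule cells. Granule cells that express Gabra6 also lie in the cochlear nuclei of the brainstem.

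Sequences in front of an annotated start of Gabra6, Cbln3, Neurod1 and Fat2 are shown. These genes had the steepest difference between cerebellum and brainstem by their brightest probe sets and were high and low in the same brainstem samples. Each is the 250 bases before an annotated start, read on the strand of the gene, from RefSeq on build GRCm38.p6. The windows of Gabra6, Cbln3 and Neurod1 adjoin the upstream end of the gene. The Fat2 window lies inside the span of Fat2 (chr11:55250609-55337505), before an internal start. A window in front of the upstream end of Fat2 was not used here. Capitals mark the core letters of a nuclear factor I site, TTGGC on either strand.

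Gabra6, chr11:42321073-42321322, minus strand: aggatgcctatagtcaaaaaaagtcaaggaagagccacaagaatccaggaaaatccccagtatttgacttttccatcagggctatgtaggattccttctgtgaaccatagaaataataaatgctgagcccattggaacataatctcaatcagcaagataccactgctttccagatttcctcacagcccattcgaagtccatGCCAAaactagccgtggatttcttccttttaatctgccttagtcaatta

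Cbln3, chr14:55884257-55884506, minus strand: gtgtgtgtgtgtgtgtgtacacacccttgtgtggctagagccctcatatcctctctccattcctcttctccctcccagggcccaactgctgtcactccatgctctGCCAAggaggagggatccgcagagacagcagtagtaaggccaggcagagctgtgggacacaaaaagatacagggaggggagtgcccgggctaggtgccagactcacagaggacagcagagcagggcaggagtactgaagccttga

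Neurod1, chr2:79456637-79456886, minus strand: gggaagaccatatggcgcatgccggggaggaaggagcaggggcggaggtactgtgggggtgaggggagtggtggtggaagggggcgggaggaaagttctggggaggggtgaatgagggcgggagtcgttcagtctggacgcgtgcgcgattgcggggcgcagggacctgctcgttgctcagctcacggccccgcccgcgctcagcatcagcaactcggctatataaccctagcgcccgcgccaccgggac

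Fat2, chr11:55312258-55312507, minus strand: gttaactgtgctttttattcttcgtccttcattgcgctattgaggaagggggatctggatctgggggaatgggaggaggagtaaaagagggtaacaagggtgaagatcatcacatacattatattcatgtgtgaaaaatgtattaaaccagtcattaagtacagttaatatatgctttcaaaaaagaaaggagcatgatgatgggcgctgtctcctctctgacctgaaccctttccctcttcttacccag

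Short motifs were searched on both strands in the 10 such windows of 7 measured genes (a window of Zic2 was not used here, and Etv1, Pax6 and Barhl1 have several windows). The half-site TTGGC lay in 4 windows of 4 genes, 49 bases before the start of Gabra6 and 145 before that of Cbln3, and in 1 window each of Barhl1 and Etv1, against 41.5% of all 32851 windows of this length. The E-box motif CAGCTG, which bHLH factors such as Atoh1 and Neurod1 can bind, was found in both windows of Barhl1 and in no window of the other genes, against 13.0% of all windows. CAGATG was found in 1 window of Etv1, against 14.4% of all. Neither the Neurod1 nor the Fat2 window held any of these letters. A match is a description of the sequence and says nothing about binding.

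In WT mice, the granule cell transcripts were far more abundant in cerebellum than in brainstem. With limma, 15 of the 18 probe sets were higher in cerebellum at an adjusted p under 0.05 and 0 were lower, while 18.8% of all probe sets tested were called higher in cerebellum. The median difference was 2.65 over the members' probe sets and -0.07 over all probe sets. Members of 7 of the 8 genes were called by their brightest probe set, with Barhl1 as the exception.

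**Figure D1:**
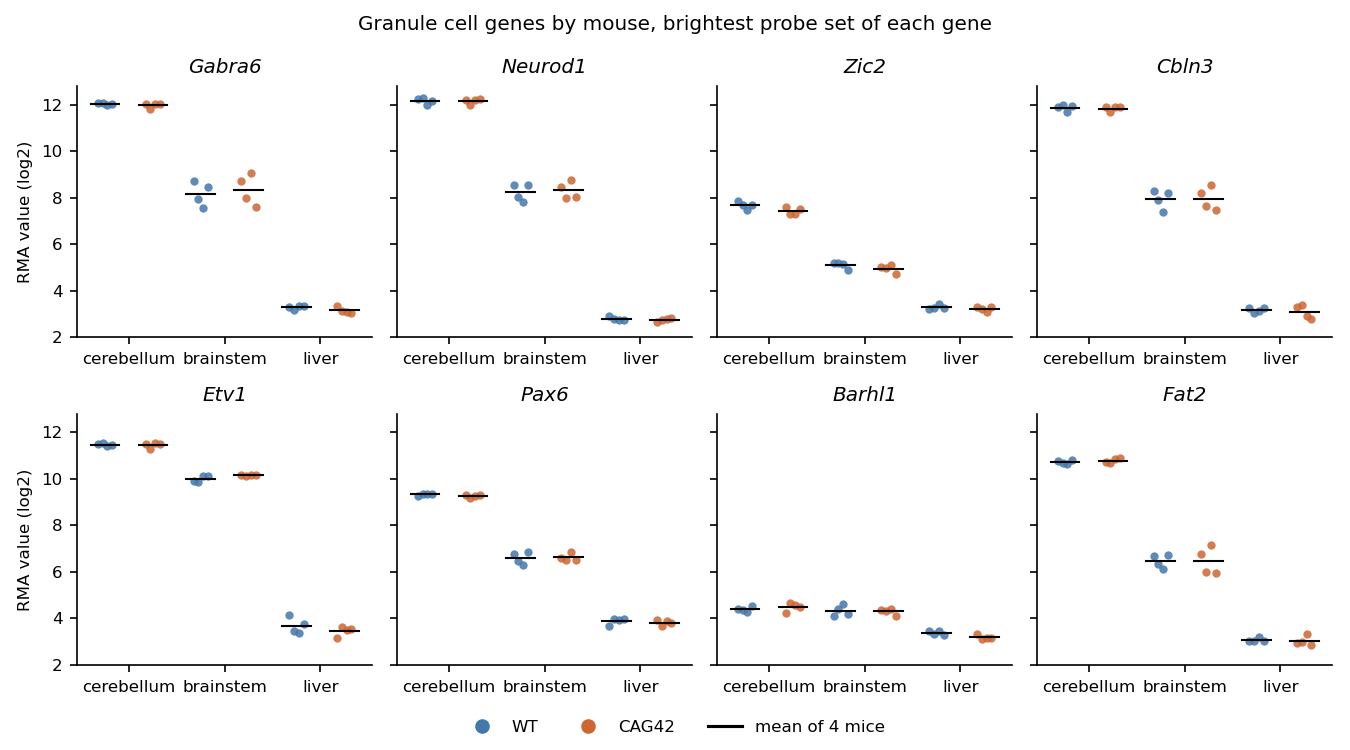
RMA value (log2) of the brightest probe set of each granule cell gene in every mouse, by tissue and genotype. Points are mice, and black bars are means of 4 mice. Gabra6, Neurod1, Cbln3 and Fat2 lie highest in cerebellum with little spread, scatter in brainstem and are lowest in liver, and Barhl1 does not separate cerebellum from brainstem.

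For Gabra6, the brightest probe set (1417121) read 12.09, 12.09, 11.98 and 12.03 in the 4 WT cerebella. The 4 WT brainstems gave 8.72, 7.95, 7.57 and 8.44, and the 4 WT livers 3.29, 3.16, 3.32 and 3.34. The tissues did not overlap, and cerebellum exceeded brainstem by 3.88 ± 0.23 (log2, standard error), a 14.7-fold difference (adjusted p = 1.26e-12, limma). By the second probe set (1451706) the difference was 5.01 ± 0.28, or 32.3-fold, which ranked 2 among all 45037 probe sets. Rank 1 was held by Il20rb with 5.02. The 2 probe sets of Gabra6 agree on the order of the tissues but not on the size of the step.

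Neurod1, a bHLH transcription factor that granule cells keep throughout life, showed a similar step. Its brightest probe set (1426413) read 12.24, 12.30, 11.98 and 12.14 in WT cerebellum and 8.54, 8.01, 7.82 and 8.54 in WT brainstem. The difference was 3.94 ± 0.15 by this probe set and 3.51 ± 0.17 by the second (1426412). In WT liver the brightest probe set lay between 2.72 and 2.92.

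Among the genes of the parallel fibre synapse, Cbln3 (1455445) read 11.89, 11.97, 11.67 and 11.93 in WT cerebellum and 8.28, 7.89, 7.38 and 8.19 in WT brainstem. Cerebellum exceeded brainstem by 3.93 ± 0.20 by this probe set and by 4.45 ± 0.23, or 21.9-fold, by the second (1422911). Fat2 (1457135) read 10.75, 10.69, 10.65 and 10.83 in WT cerebellum and 6.69, 6.35, 6.15 and 6.71 in WT brainstem. Its difference of 4.26 ± 0.19, or 19.1-fold, was the largest among the brightest probe sets of the 8 genes.

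Zic2 and Pax6 had intermediate steps. Zic2, a zinc finger transcription factor, read 7.86, 7.69, 7.46 and 7.70 in WT cerebellum and 5.19, 5.17, 5.17 and 4.90 in WT brainstem, a difference of 2.57 ± 0.10. Pax6, a paired-box transcription factor needed for granule cell development, read 9.27, 9.37, 9.36 and 9.35 in WT cerebellum and 6.78, 6.47, 6.29 and 6.87 in WT brainstem by its brightest probe set (1419271). That difference was 2.73 ± 0.11, and a second Pax6 probe set (1452526) gave 3.10 ± 0.20.

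The remaining Pax6 probe sets were dim and did not all follow. Their differences between cerebellum and brainstem were 0.95 (1456342), 0.66 (1425960) and 0.44 (1437816), and the last was not called in the fit over all 24 arrays (adjusted p = 0.0712, limma). The 4 WT cerebella still lay above the 4 WT brainstems by this probe set. In the fit of the compared arrays alone it was called with the same difference of 0.44, without a block (adjusted p = 0.00615, limma) and with the replicate number as a block, a paired fit (adjusted p = 0.00329). In liver, where Pax6 1437816 read 4.73 on average against 3.38 in cerebellum and 2.94 in brainstem, the order of the tissues was turned. The median of the 23 background control probe sets lay between 2.58 and 2.77 on the brain arrays and between 2.89 and 3.06 on the liver arrays. The second highest of these controls on an array, between 3.07 and 3.62 over the WT arrays, is used as the background level of that array. Pax6 1425960 and 1437816 lay below it in all 4 WT brainstems, so that their steps are bounds of at least 0.09 and 0.10. Such a bound is the mean of the brighter group minus the mean of the dimmer one, in which every array below its background level is set to that level.

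Etv1, an ETS transcription factor, had the smallest step among the 7 genes called by their brightest probe set. Its brightest probe set (1422607) read 11.49, 11.54, 11.43 and 11.44 in WT cerebellum and 9.91, 9.85, 10.12 and 10.10 in WT brainstem. The difference was 1.48 ± 0.13, or 2.78-fold, without overlap between the tissues. By the other probe sets it was 0.52 ± 0.09 (1450684) and 1.79 ± 0.18 (1445314).

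Barhl1, a homeobox transcription factor, did not separate the regions. Its brighter probe set (1418812) read 4.39, 4.34, 4.28 and 4.53 in WT cerebellum and 4.09, 4.40, 4.61 and 4.20 in WT brainstem, and the tissues overlapped. The difference was 0.06 (95% interval -0.17 to 0.28, adjusted p = 0.713, limma). None of these values lay above the highest array median of its tissue, 4.54 in WT cerebellum and 4.62 in WT brainstem. The second Barhl1 probe set (1418811) averaged 3.44 and 3.20, a difference of 0.25 (95% interval -0.11 to 0.60), and only 1 of the 4 WT brainstems lay above the background level.

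**Figure D2:**
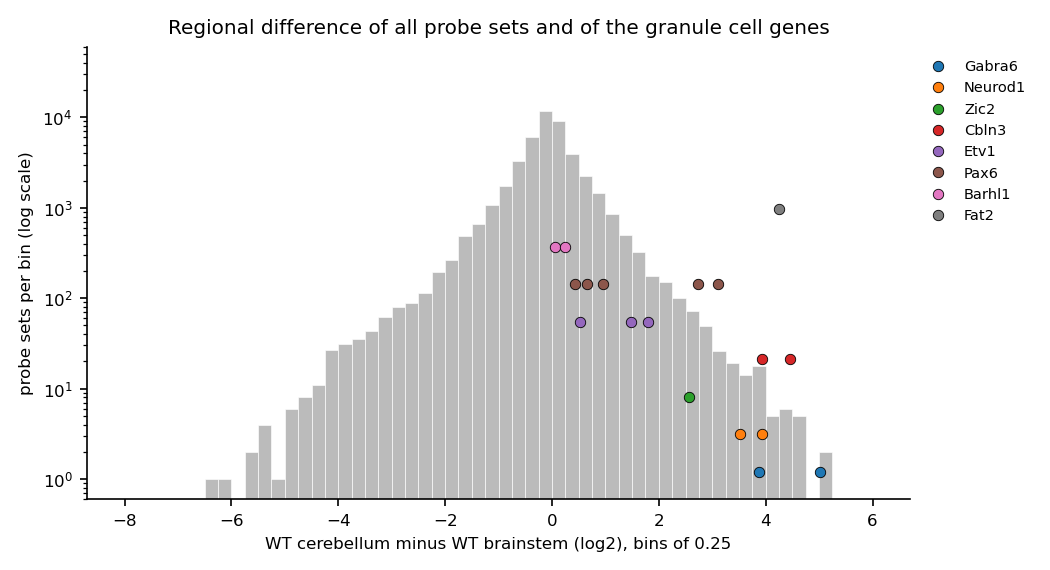
Difference between WT cerebellum and WT brainstem (log2, horizontal axis) for all 45037 probe sets as grey bars (number per bin, log scale), with the 18 probe sets of the granule cell genes as coloured points whose height only separates the genes. Gabra6, Neurod1, Cbln3 and Fat2 lie at the upper end of the distribution, Zic2 and the brighter Pax6 probe sets below them, and Barhl1 in the bulk.

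The regional difference was also present in CAG42 mice, where 15 of the 18 probe sets were called higher in cerebellum and 0 lower, while 18.7% of all probe sets were called higher there. The 3 probe sets that did not pass were again those of Barhl1 and Pax6 1437816. In CAG42 mice cerebellum exceeded brainstem by 3.65 ± 0.23 and 4.39 ± 0.28 for the 2 probe sets of Gabra6, by 3.88 ± 0.20 for Cbln3 and by 4.31 ± 0.19 for Fat2. Whether these steps differed between genotypes was tested together with the genotype effects, further on.

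**Figure D3:**
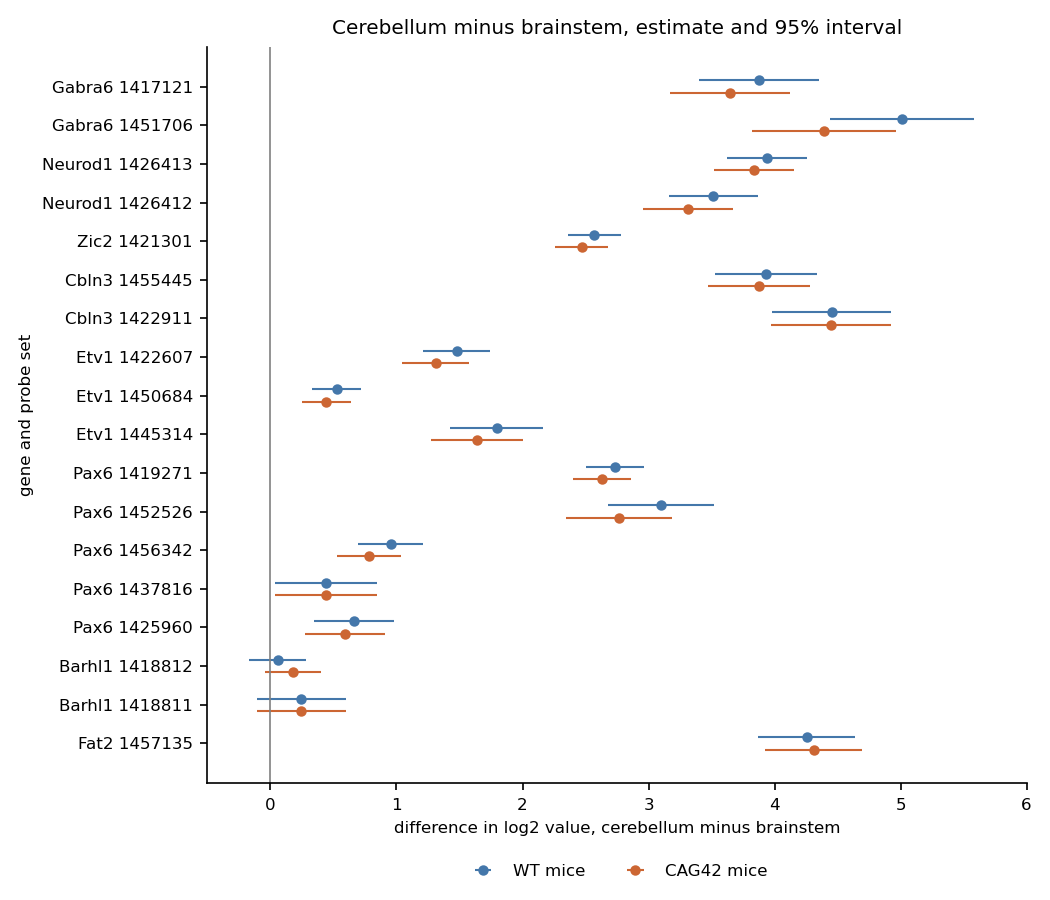
Cerebellum minus brainstem (log2) for each probe set of the granule cell genes, as the limma estimate with its 95% interval, in WT mice and in CAG42 mice. The intervals of all probe sets except those of Barhl1 lie above 0 in both genotypes, although Pax6 1437816 did not pass the adjusted test.

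Against liver, 15 of the 18 probe sets were called higher in WT cerebellum (44.4% of all probe sets were) and 14 in WT brainstem (46.5% of all). Those called lower than in liver were Pax6 1437816 in cerebellum, by -1.34, and in brainstem Pax6 1437816, 1425960 and 1452526. The brainstem lay below the background level on all 4 arrays for the first and second of these, with bounds of at least 1.45 and 0.21, and 1452526 was lower by -0.60. The call of 1452526 was lost in the fit of the compared arrays alone (adjusted p = 0.0621, limma). The brainstem level of the steep genes also lay above that of liver, where Neurod1, Cbln3 and Fat2 were below the background level on all 4 arrays and Gabra6 on all but 1. As bounds, brainstem exceeded liver by at least 4.79 for Neurod1, 4.50 for Cbln3, 3.04 for Fat2 and 4.73 for Gabra6. By the brightest probe sets the order was cerebellum, then brainstem, then liver for 7 genes, each step passing the test. For Barhl1 cerebellum and brainstem did not differ beyond their spread, and both exceeded liver, by at least 0.92 and 0.86, with 1 of the 4 livers above the background level.

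In cerebellum, the comparison of CAG42 with WT mice asks whether the granule cell transcripts were altered in the old knock-in mice. None of the 18 probe sets passed the test, while 0.0444% of all probe sets did. Their differences ranged from -0.26 to 0.12 with a median of -0.04, against -0.01 over all probe sets. In 13 probe sets the mean was lower in CAG42 mice and in 5 it was higher. At an unadjusted p under 0.05, limma counted 1 of the 18, with all 24 arrays as with the cerebellum arrays alone, and 3.59% of all probe sets with all arrays.

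That probe set was Zic2. It read 7.58, 7.29, 7.28 and 7.52 in CAG42 cerebellum, against the WT values of 7.86, 7.69, 7.46 and 7.70. All CAG42 mice lay below the WT mean, but the groups overlapped, with the lowest WT mouse beneath the 2 highest CAG42 mice. The difference was -0.26 (95% interval -0.47 to -0.05), with an unadjusted p of 0.0173 and an adjusted p of 1.00 from limma. An exact permutation test over the 8 mice, two-sided, gave p = 0.0857, where 0.0286 is the smallest value that 4 against 4 mice allow. In brainstem Zic2 differed by -0.16 (95% interval -0.37 to 0.05).

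Gabra6 averaged 11.97 ± 0.11 in the cerebella of CAG42 mice and 12.05 ± 0.05 in those of WT mice (SD, n = 4). The CAG42 mice read 12.04, 11.81, 12.02 and 12.03, and replicate 2 stood below the other mice. The difference was -0.07, with a 95% interval of -0.55 to 0.40 when all 24 arrays share 1 spread and of -0.23 to 0.09 in the fit of the cerebellum arrays alone, since Gabra6 varied much less in cerebellum than in brainstem. The second probe set gave -0.05, with an interval of -0.25 to 0.16 in the cerebellum arrays alone.

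The other steep genes were as close. Neurod1 differed by -0.02, Cbln3 by -0.03 and Fat2 by 0.05, and their intervals from the cerebellum arrays alone were -0.22 to 0.19, -0.23 to 0.16 and -0.11 to 0.22. For Etv1 the difference was -0.01 (interval -0.18 to 0.15) and for Pax6 -0.08 (interval -0.22 to 0.07). These intervals bound the change that 4 mice per genotype leave possible and do not show that the genotypes were equal. Barhl1 gave 0.10 (interval -0.13 to 0.33) by its brighter probe set and -0.05 by the other.

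**Figure D4:**
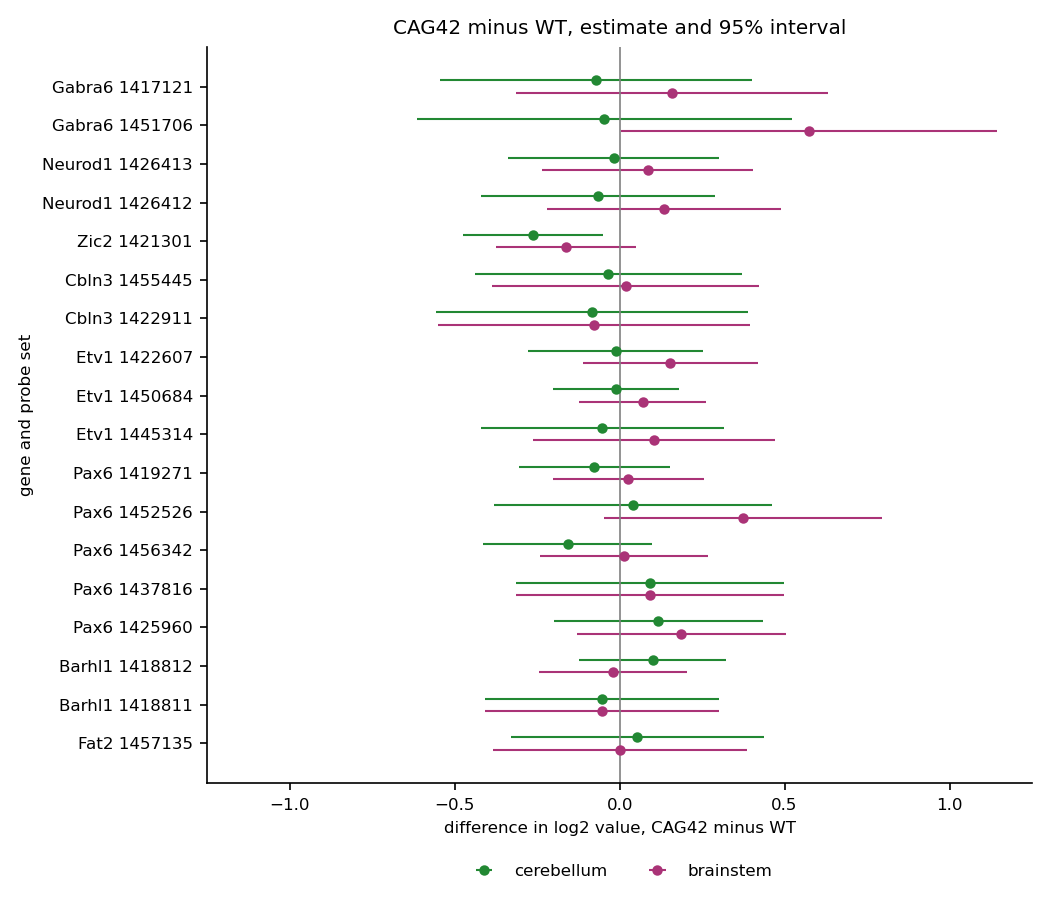
CAG42 minus WT (log2) in cerebellum and in brainstem for each probe set of the granule cell genes, as the estimate of the limma fit over 24 arrays with its 95% interval. The intervals of Zic2 in cerebellum and of Gabra6 1451706 in brainstem do not reach 0, and no probe set passed the adjusted test. In the fit of the brainstem arrays alone, not drawn, the interval of Gabra6 1451706 was -0.277 to 1.425.

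No gene of the set had CAG42 and WT cerebella that did not overlap, by any of its probe sets, whereas 3.94% of all probe sets separated the genotypes there. In brainstem none did either, against 3.70% of all probe sets.

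In brainstem, again none of the 18 probe sets passed (0.0155% of all did). The differences between CAG42 and WT mice ranged from -0.16 to 0.57 with a median of 0.08, against -0.01 over all probe sets. The highest value belonged to the second probe set of Gabra6 (1451706), which read 6.36, 5.20, 6.63 and 5.60 in CAG42 mice and 6.14, 4.93, 4.65 and 5.76 in WT mice. The groups overlapped widely. Its difference of 0.57 had a 95% interval of 0.0041 to 1.14, an unadjusted p of 0.0485 and an adjusted p of 1.00 from limma, and an exact permutation p of 0.257. It was the only 1 of the 18 with an unadjusted p under 0.05 in the fit over all 24 arrays, where 4.17% of all probe sets had one. In the fit of the brainstem arrays alone 0 of the 18 had, and the interval of Gabra6 1451706 was -0.277 to 1.425.

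The brighter Gabra6 probe set differed by 0.16 (95% interval -0.32 to 0.63) in brainstem. It read 8.69, 7.98, 9.05 and 7.58 in the CAG42 mice. Without CAG42 replicate 3 the difference became -0.08 and without CAG42 replicate 4 it became 0.41. Neurod1 differed by 0.09, Cbln3 by 0.02, Pax6 by 0.03 and Fat2 by -3.8e-05. The Etv1 values of the CAG42 mice, 10.17, 10.11, 10.17 and 10.15, all lay above the WT mean of 10.00, for a difference of 0.15 (95% interval -0.11 to 0.42) with an exact permutation p of 0.0571.

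Whether the CAG42 effect was larger in one region than in the other was tested in the same model. Of the 18 probe sets 0 passed and 0 had an unadjusted p under 0.05, while 0.00222% of all probe sets passed and 1.68% had an unadjusted p under 0.05. For Gabra6 cerebellum minus brainstem of that effect was -0.23 (95% interval -0.90 to 0.44) and for Fat2 0.05 (95% interval -0.49 to 0.60). In the fit of the compared arrays alone these intervals were -1.02 to 0.56 and -0.57 to 0.67. Fbxw8, the gene that the study follows in old cerebellum, passed in cerebellum of the same mice with a difference of 1.32 (adjusted p = 0.0225, limma). In brainstem Fbxw8 differed by 0.90 and did not pass (adjusted p = 0.717), and the difference between these effects, 0.42 ± 0.32, did not pass either (adjusted p = 1.00).

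For some of the genes the spread between mice was wider in brainstem than in cerebellum, which was not tested. Around the genotype means, Gabra6 had an SD of 0.09 in cerebellum and of 0.59 in brainstem, a ratio of 6.94. Its brainstem SD exceeded that of 99.2% of all probe sets, whereas its cerebellar SD exceeded that of 18.6%. For Fat2 the SD was 0.09 in cerebellum and 0.46 in brainstem, the latter above 98.5% of all probe sets. The median SD of all probe sets was 0.13 in both regions. Cbln3 and Neurod1 had 3.71 and 2.82 times their cerebellar SD in brainstem and Pax6 3.84 times. But Zic2, Etv1 and Barhl1 had 0.92, 1.13 and 1.19 times. Etv1 1445314 had 0.19 times, but its brainstem means of 3.50 (WT) and 3.60 (CAG42) lay close to the background level. Its cerebellar SD was 0.60 in WT mice, with 1 mouse at 6.18, and 0.21 in CAG42 mice. Over the 8 brainstem samples Gabra6 ranged from 7.57 to 9.05, a 2.80-fold range. A wider spread in brainstem was not limited to granule cell genes. The Purkinje cell gene Pcp2 had SDs of 0.09 (WT) and 0.04 (CAG42) in cerebellum, and of 0.48 and 0.57 in brainstem. For Gdf10, a gene of Bergmann glia, they were 0.09 and 0.22 in cerebellum and 0.63 and 0.49 in brainstem. Car8, another Purkinje cell gene, went the other way, with 0.59 and 0.38 in cerebellum and 0.37 and 0.15 in brainstem.

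The same brainstem samples were high for several genes. Among WT mice, replicates 1 and 4 lay above replicates 2 and 3 for Gabra6, Neurod1, Cbln3, Fat2 and the 2 brightest probe sets of Pax6, by every probe set of the first 4 genes. Among CAG42 mice, replicates 1 and 3 lay above replicates 2 and 4 for the same probe sets. How many of all probe sets had these orders was not counted. In the highest brainstem, that of CAG42 replicate 3, Gabra6 read 9.05, Neurod1 8.75, Cbln3 8.53 and Fat2 7.16. In the brainstem of CAG42 replicate 4 they read 7.58, 8.04, 7.46 and 5.96.

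**Figure D5:**
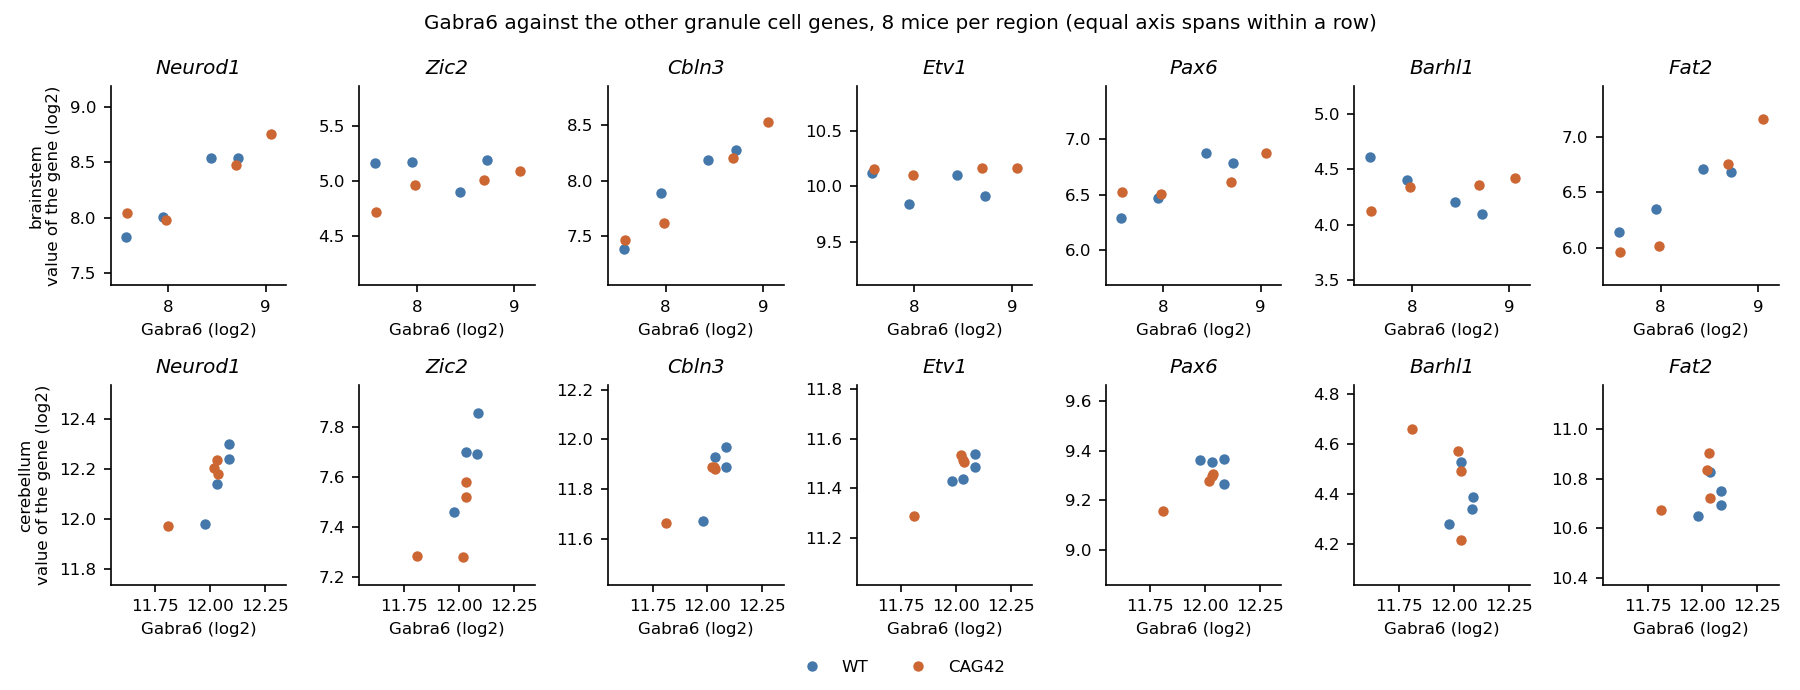
Value of Gabra6 (log2, horizontal axis) against that of each other granule cell gene (log2, vertical axis) in the 8 brainstem samples (upper row) and the 8 cerebellum samples (lower row), by the brightest probe sets, with equal spans of the axes within a row. In brainstem Neurod1, Cbln3 and Fat2 line up with Gabra6 over both genotypes, and Zic2, Etv1 and Barhl1 do not. In cerebellum the spans are narrower and CAG42 replicate 2 lies apart at the lowest Gabra6 value.

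Over the 8 brainstem samples, Gabra6 correlated with Cbln3 at Pearson's r = 0.97 and Spearman's rho = 0.98 (exact permutation p adjusted over 18 relations, 0.00491 and 0.00714). Without the 2 samples farthest from the median of Gabra6 the r was 0.95. With Neurod1 r was 0.95 and rho 0.88 (adjusted exact p = 0.0123 and 0.0643), and r without the farthest 2 was 0.90. With Fat2 r was 0.94 and rho 0.81 (adjusted exact p = 0.0116 and 0.0718), and 0.92 without the farthest 2. Pax6 gave r = 0.84 and rho = 0.79 (adjusted exact p = 0.0374 and 0.0718), and 0.69 without the farthest 2. After the genotype means were removed these 4 r were 0.98, 0.95, 0.95 and 0.84.

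Zic2, Etv1 and Barhl1 gave r of 0.28, 0.04 and -0.19 with Gabra6 in brainstem, with rho of 0.21, 0.21 and -0.19, and none passed (adjusted exact p of r = 0.609, 0.911 and 0.728). Whether these differ from the r of Cbln3 was not tested. All 18 relations were chosen after the values had been seen, share the same Gabra6 values and come from arrays normalized together.

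In cerebellum, where the range of Gabra6 was 0.28, Neurod1 and Cbln3 gave r of 0.83 and 0.83 and rho of 0.79 and 0.76 (adjusted exact p of r = 0.0116 and 0.0152), with r of 0.90 and 0.89 without the farthest 2 samples. Etv1 gave r = 0.90 and rho = 0.50 (adjusted exact p = 0.0429 and 0.389) and 0.64 without the farthest 2. Zic2 gave r = 0.72 and rho = 0.86, and Pax6 0.71 and 0.24, with r falling to 0.59 and 0.11 without the farthest 2 (adjusted exact p of r = 0.0530 and 0.159). Fat2 and Barhl1 gave 0.35 and -0.54 (rho 0.24 and -0.48, adjusted exact p of r = 0.545 and 0.224).

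Other cell types were read in the same samples. Pcp2, a Purkinje cell gene, read 8.96, 8.35, 7.87 and 8.74 in the WT brainstems and 8.81, 8.27, 9.37 and 8.12 in those of CAG42 mice, so that the same mice as for Gabra6 were high. It is 1 of 2 Purkinje cell genes, with Ppp1r17, of which this held in both genotypes. Of the 9 measured, 7 had WT replicates 1 and 4 above the other 2, and the remaining genes did not keep the order of the CAG42 mice. These pairs of mice were picked by Gabra6, and the share of all probe sets with the same order was not counted. The counts therefore do not show whether the Purkinje cell genes differ from other genes. Calb1, a calcium buffer, read 10.23, 10.02, 10.48 and 10.34 in CAG42 brainstem, and Car8 read 3.84, 4.03, 4.17 and 4.16 there, with replicate 1 lowest. Pcp2 averaged 12.40 in WT cerebellum, 3.92 above WT brainstem. The mean over the 9 measured Purkinje cell genes gave r = 0.70 and rho = 0.79 with Gabra6 in brainstem (adjusted exact p = 0.126 and 0.0718), and 0.53 without the farthest 2. This mean also holds genes without a step like that of Pcp2. Foxp2 was lower in WT cerebellum than in WT brainstem, by -2.21, and Aldoc differed by 0.01. The relation of Gabra6 with single Purkinje cell genes was not tested. For the means of the brainstem, choroid plexus and oligodendrocyte lists r was 0.58, 0.33 and 0.05 and rho 0.64, 0.45 and 0.24 (adjusted exact p of r = 0.221, 0.545 and 0.911). The part of Purkinje cell transcripts in the relations among the granule cell genes was not tested.

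Further granule cell genes were followed by their brightest probe sets. Of 22 such genes 20 were measured, and 17 were higher in WT cerebellum than in WT brainstem, 1 was lower and 2 did not pass, with a median difference of 1.58. Over all probe sets 18.8% were called higher in WT cerebellum. The steepest were Gabrd, the delta subunit that pairs with Gabra6 in extrasynaptic receptors, with 3.92, the homeobox gene En2 with 3.57 and Chn2 with 2.89. Vsnl1, a neuronal calcium sensor, was lower in cerebellum, by -0.30. Snap25, of the vesicle fusion machinery, and Atoh1, the factor that specifies granule cell precursors, did not pass, and Atoh1 averaged 3.23 in cerebellum, with 2 of the 4 WT arrays above the background level. None of the 20 passed between the genotypes, in cerebellum (median -0.03) or brainstem (median 0.02). The lowest p in cerebellum belonged to Cntn2, Reln and Fgf14, with differences of 0.27, -0.17 and -0.21.

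Partners and relatives of the members were read in both regions. Of the GABA-A receptor subunits that assemble with Gabra6, 2 of 5 were measured, and Gabrb2 was higher in cerebellum by only 0.43 ± 0.09 where Gabrd was higher by 3.92 ± 0.25. Among the cerebellins and their receptors, 6 of 8 were measured, of which 2 were higher and 4 lower in WT cerebellum. Of all 45037 probe sets 21170 were called between these tissues, and 8469 of those were higher in cerebellum. Cbln4 and Cbln2, relatives of Cbln3, averaged 7.90 and 7.28 in WT brainstem and were lower in cerebellum by at least 4.57 and 3.96, the opposite order of Cbln3. They lay above the background level in 2 and 1 of the 4 WT cerebella. The neurexins Nrxn3 and Nrxn2, presynaptic receptors of cerebellins, were higher by 0.60 and 0.59, and the delta receptor Grid1 and C1ql1 were lower by at least 0.58 and 1.09, with 1 and 0 of the 4 WT cerebella above the background level. Zic5 and Zic4, relatives of Zic2, were higher in cerebellum by 3.08 and 1.35. None of these genes passed between the genotypes in either region.

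None of the genes in the lists of other cell types passed between CAG42 and WT mice. Their medians in cerebellum lay between -0.05 and 0.19 for Purkinje cells (9 genes), unipolar brush cells (4), inhibitory interneurons (7), astrocytes and Bergmann glia (8), oligodendrocytes (7), microglia (8), meninges (7), brainstem neurons (9) and hepatocytes (5), and it was 0.58 for the choroid plexus (8). In the 4 WT cerebella the mean level of the choroid plexus genes ranged from 5.40 to 7.20, and in the 4 CAG42 cerebella from 6.72 to 7.29. Over the same mice the mean of the 8 granule cell genes ranged from 9.85 to 10.00 in WT and from 9.81 to 9.99 in CAG42 cerebellum, and from 6.89 to 7.28 and 6.82 to 7.51 in brainstem. The part of the choroid plexus in the cerebellar comparison was not tested. RNA integrity, read as the difference of the 3′ and 5′ Gapdh control probe sets, was -0.08 ± 0.06 for CAG42 and -0.05 ± 0.05 for WT mice in cerebellum (SD, n = 4, exact permutation p = 0.514), and -0.02 ± 0.02 and 0.04 ± 0.03 in brainstem (exact permutation p = 0.0286, the smallest value possible), and its part was not tested.

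The genes most like the mean of the 8 members over all 24 arrays, outside the set, were Gas7, Pkib, Lhx1, Afap1l2 and Ptprr, with a Pearson's r between 0.998 and 0.999. Gas7 averaged 9.93 in WT cerebellum, 7.88 in WT brainstem and 5.02 in WT liver. These 24 values fall into 3 tissues, so that the likeness is mostly that of the tissue means. The genes outside the set with the largest difference between WT cerebellum and WT brainstem were Il20rb, Nrk, Pcp2 (by a further probe set), Crtam and Iltifb, with 5.02, 4.72, 4.67, 4.65 and 4.55.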

How the data were processed

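Cerebellum, brainstem and liver RNA of 18 months old mice was measured on 24 Affymetrix arrays, 4 WT and 4 CAG42 mice per tissue, grouped by the sample labels. The authors scanned the arrays and deposited log2 values made with RMA, using R 2.7.0 by the submitters' processing notes. RMA brings all arrays to one distribution, so that values are relative within the series. No detection calls or scan dates were used, and arrays of younger mice were not analysed here. No genome build is given for the array values in the sources used here. The number of mice limits the precision.

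Of 45141 probe sets 104 controls were left out. Of the rest 28898 had 1 gene in the platform's annotation, 551 several and 15588 none. In limma 3.58.1 (R 4.3.3), all 24 arrays entered a linear model with 6 group means. P-values were adjusted after Benjamini and Hochberg over the 45037 probe sets of each comparison, and a call needed an adjusted p under 0.05. Exact permutation tests (SciPy 1.17.1, two-sided) compared single probe sets over 4 against 4 mice. Gene lists were read by the brightest probe set of each gene. The members and lists were chosen with earlier results of these data known. Named were all members, per list the 3 genes of lowest p in cerebellum and of largest regional difference (for lists of other cell types only where needed), the 5 non-members most like the members and the 5 of largest regional difference. Replicates of cerebellum and brainstem with the same number deviated together (r of 0.224 to 0.375 in all 8 pairs, from probe set deviations), and the labels do not say that a number marks 1 mouse. The procedure was tested on simulated data with independent noise and 1 spread per probe set in all groups. That test does not cover spreads that differ between regions or arrays that deviate together. Alternatives were other normalizations, a filter on dim probe sets, array weights, replicate blocks, fits of the compared arrays alone, gene means, and leaving out each replicate.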

Additional observations from a re-analysis of the deposited data

Results flagged for a closer look

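In 11 of 108 groups of 4 mice (18 probe sets in 6 groups), 1 mouse stood farther from the others than the 95% critical value of Dixon's ratio for 4 values allows, which chance gives in about 5% of groups. CAG42 replicate 2 was lowest in cerebellum for Gabra6 1417121 at 11.81 (next 12.02), for Cbln3 1455445 at 11.67 (next 11.88) and for Etv1 1422607 at 11.29 (next 11.51). Without it the genotype difference of Gabra6 in cerebellum was -0.02. WT replicate 2 was highest in cerebellum for Etv1 1445314 at 6.181 (next 5.134), and WT replicate 1 lowest for Pax6 1419271 at 9.266 (next 9.353). In brainstem WT replicate 4 was lowest for Zic2 at 4.904 (next 5.166) and WT replicate 1 for Pax6 1456342 at 3.671 (next 3.933). In liver WT replicate 1 was lowest for Etv1 1450684 at 3.154, Pax6 1419271 at 3.671 and Barhl1 1418811 at 2.608, and CAG42 replicate 1 was highest for Gabra6 1451706 at 3.239. For no granule cell gene was the CAG42 effect called as different in cerebellum and in brainstem.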

How the results depend on the processing

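The counts of called granule cell probe sets and genes kept their side under every alternative run, with 0 called between the genotypes throughout and 14 to 16 probe sets called between WT cerebellum and WT brainstem. Pax6 1437816 passed in that comparison with the median of each array subtracted (0.53), with array weights (0.46) and, for the compared arrays alone, without a block or with the replicate number as a block (0.44 in both). The call of Pax6 1452526 between WT brainstem and WT liver was lost in the fits of the compared arrays alone, without a block (adjusted p = 0.0621) as with the replicate number as a block, where 16 in place of 17 probe sets were called. No other call of a granule cell probe set changed under the replicate block.

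Genotype differences near 0 changed sign without passing the test. With quantile normalization within tissue, Neurod1 gave 0.0040 in cerebellum and Fat2 0.0050 in brainstem. With array weights, Etv1 1422607 gave 0.0021 and Etv1 1445314 0.035 in cerebellum, and Barhl1 1418812 0.0010 and Fat2 0.021 in brainstem. As means over all probe sets of a gene, Pax6 gave 0.0029 in cerebellum, Cbln3 -0.030 in brainstem, and Pax6 -0.011 in WT brainstem against WT liver, where its call was lost. In place of the brightest probe set, the others gave 0.039, 0.093 and 0.12 for Pax6 and -0.054 for Barhl1 in cerebellum, and -0.078 for Cbln3 in brainstem.

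With 1 replicate left out at a time, 24 differences changed sign in at least 1 fit, none of them called in any. The ranges in cerebellum were Gabra6 1451706 (-0.10 to 0.012), Neurod1 1426413 (-0.080 to 0.041), Cbln3 1455445 (-0.10 to 0.021), Etv1 1422607 (-0.037 to 0.045), Etv1 1450684 (-0.043 to 0.017), Etv1 1445314 (-0.18 to 0.24), Pax6 1452526 (-0.0063 to 0.070) and Barhl1 1418811 (-0.14 to 0.047). In brainstem they were Gabra6 1417121 (-0.084 to 0.41), Neurod1 1426413 (-0.062 to 0.20), Neurod1 1426412 (-0.023 to 0.27), Cbln3 1455445 (-0.17 to 0.18), Cbln3 1422911 (-0.28 to 0.20), Pax6 1419271 (-0.080 to 0.12), Pax6 1456342 (-0.059 to 0.059), Barhl1 1418812 (-0.10 to 0.074), Barhl1 1418811 (-0.12 to 0.015) and Fat2 1457135 (-0.23 to 0.17). For the CAG42 effect in cerebellum minus that in brainstem they were Gabra6 1417121 (-0.48 to 0.012), Neurod1 1426413 (-0.21 to 0.044), Cbln3 1455445 (-0.22 to 0.14), Pax6 1419271 (-0.19 to 0.0034) and Fat2 1457135 (-0.12 to 0.28), and for WT cerebellum against WT brainstem Barhl1 1418812 (-0.022 to 0.15).

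Over all probe sets, 20 were called in cerebellum and 7 in brainstem. These counts were 32 and 25 with array weights, 10 and 6 with the compared arrays alone, and 5 and 0 over gene means. They were 51 for 1 F statistic over the tissues, and 9 to 19 and 6 to 11 with 1 replicate left out. With the replicate number as a block they were 0 and 4. For CAG42 against WT this block pairs mice of the same number, which the labels do not link. Deviations of such pairs had r of -0.17 to 0.14 in cerebellum and of -0.09 to 0.21 in brainstem. Between WT cerebellum and WT brainstem 21170 were called, and 8755 over gene means, where fewer features were tested. Actb in place of Gapdh gave -0.041 for the 3′ minus 5′ control signal in brainstem (exact permutation p = 0.514). Values near the background controls limit what can be read from Barhl1, the dim Pax6 probe sets and the levels in liver. The causes were not tested.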
